A study of Mus musculus with 3 samples.

Results

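Expression of 10 genes, 5 of the CCN family of matricellular proteins and 5 other genes known as targets of the transcriptional co-activators YAP and TAZ, was followed through the in vitro differentiation of Leydig cells from adult mouse testis. The genes were chosen by name, under the older symbols of the merged count table, and all 10 were found among its 24698 genes. They were Cyr61 (Ccn1), Ctgf (Ccn2), Nov (Ccn3), Wisp1 (Ccn4), Wisp2 (Ccn5), Ankrd1, Amotl2, Ajuba, Lats2 and Axl. The study had already picked Cyr61 and Ctgf as markers of cell clusters from these libraries, so their differences between cell states are not independent evidence.

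Interstitial cells that carried Sca1 and lacked cKit were sorted from the testes of C57BL/6 males aged 8 to 12 weeks. They were plated on Matrigel at 100000 cells per well, left to recover for 18 h with 10% fetal bovine serum and expanded for 3 days with PdgfAA, PdgfBB and Fgf2, each at 10 ng/ml, and the Smoothened agonist SAG at 0.5 µM. The differentiation medium held the same factors plus 5 mM LiCl2, as the labels write this lithium salt used to inhibit GSK3, and 10 µM of DAPT, which blocks Notch cleavage. Single cells were sequenced by Drop-seq, which captures each cell with a barcoded bead in a droplet and counts unique molecular identifiers (UMIs). There was 1 library for each of culture days 4, 7 and 14 and no replicate. As the study describes it, day 4 closed the expansion, and days 7 and 14 followed the change to differentiation medium. Comparisons with day 4 therefore differ in medium, LiCl2 and DAPT included, as well as in time and library, and these cannot be told apart. Freshly sorted cells were not analysed here. The labels do not say how many animals or wells went into a library.

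CCN proteins are secreted, cysteine-rich proteins that sit in the matrix and bind integrins and other receptors. CYR61 and CTGF are textbook readouts of YAP and TAZ. When cells spread on a stiff matrix and build actin stress fibres, the Hippo kinases are held off, YAP and TAZ enter the nucleus, and they switch genes on through the TEAD DNA-binding proteins. Several targets act back on the pathway or on adhesion, among them AMOTL2, AJUBA and LATS2. Cyr61 and Ctgf are also serum-responsive immediate-early genes and TGF-beta targets, so they are not readouts of YAP and TAZ alone. In fibroblasts and myofibroblasts, CCN proteins are known for their part in matrix remodelling. Leydig cells, the testosterone-producing cells of the testis interstitium, are rounded, lipid-rich cells in vivo.

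The genes lie apart in the genome (GENCODE M21 positions on GRCm38, all protein coding). Cyr61 was at chr3:145646976-145649981, Ctgf at chr10:24595442-24598683 and Wisp2 at chr2:163820861-163833146. Nov (chr15:54745702-54754039) and Wisp1 (chr15:66891320-66923201) shared a chromosome, as did Ajuba (chr14:54567472-54577558) and Lats2 (chr14:57689662-57758388). Ankrd1 was at chr19:36111961-36120099, Amotl2 at chr9:102716672-102733418 and Axl at chr7:25757273-25788705.

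Promoters are shown because TEAD proteins are the route by which YAP and TAZ reach DNA, and because all of these genes were lower at day 14 than at day 4, by differing amounts. Each RefSeq promoter (GRCm38.p6) ran from 250 bases before to 50 after the transcription start. The TEAD core GGAATG, or its reverse complement CATTCC, was found in 6 of the 6 genes with a RefSeq entry, and in 14.7% of all 32851 promoters searched in the same window. The matches are descriptions of these letters and not mapped binding sites, and the genes were listed because they are known YAP targets. The 3 whole promoters below are written 5′ to 3′ on the strand of the gene, with each match in capitals.
Cyr61 (chr3:145649936-145650235, minus strand): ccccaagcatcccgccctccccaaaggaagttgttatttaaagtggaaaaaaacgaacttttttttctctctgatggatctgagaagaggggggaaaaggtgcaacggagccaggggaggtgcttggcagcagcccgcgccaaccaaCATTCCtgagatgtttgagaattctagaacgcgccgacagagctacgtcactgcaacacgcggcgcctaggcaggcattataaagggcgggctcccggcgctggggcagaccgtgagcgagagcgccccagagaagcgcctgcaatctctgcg
Ankrd1 (chr19:36119795-36120094, minus strand): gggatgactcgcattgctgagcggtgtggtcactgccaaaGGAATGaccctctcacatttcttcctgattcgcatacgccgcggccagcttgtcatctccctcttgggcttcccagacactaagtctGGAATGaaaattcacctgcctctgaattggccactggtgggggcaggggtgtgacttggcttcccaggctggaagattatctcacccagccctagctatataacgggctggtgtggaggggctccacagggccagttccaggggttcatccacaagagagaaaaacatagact
Amotl2 (chr9:102717554-102717853, plus strand): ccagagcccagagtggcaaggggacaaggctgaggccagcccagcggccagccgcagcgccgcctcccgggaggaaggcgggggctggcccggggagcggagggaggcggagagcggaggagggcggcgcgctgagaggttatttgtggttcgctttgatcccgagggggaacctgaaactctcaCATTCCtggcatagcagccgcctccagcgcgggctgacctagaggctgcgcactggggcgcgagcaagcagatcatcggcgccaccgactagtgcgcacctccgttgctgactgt
The match began 103 bases before the start in Cyr61 and 65 in Amotl2, and the pair of matches in Ankrd1 began 210 and 123 bases before it. Only 1.36% of all promoters held 2 or more matches. The 30 bases around the match in 3 further genes are shown in the same way, with a pair in Ajuba.
Axl: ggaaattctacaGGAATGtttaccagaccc
Ajuba, first: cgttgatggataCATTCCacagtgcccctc
Ajuba, second: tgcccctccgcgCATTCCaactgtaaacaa
Lats2: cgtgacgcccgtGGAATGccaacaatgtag
In Axl the match began 233 bases before the start, in Ajuba 186 and 164 bases before it, and in Lats2 just after it. The 2 Lats2 entries differed, and the other one held no match. The AP-1 sequence TGANTCA, searched on both strands, was in 0 of the 6 genes and in 7.81% of all promoters, and the CArG box bound by serum response factor was in 0 of the 6 and in 1.63% of all. Ctgf, Nov, Wisp1 and Wisp2 were matched to no entry.

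The day 4, 7 and 14 libraries held 2980, 2171 and 973 cells with 12677110, 11627440 and 5324400 UMIs. The median cell had 2886.5, 3285 and 3272 UMIs, and the median mitochondrial share was 1.19%, 1.37% and 2.30%. No barcode was shared between days. Within a day, however, many cells had a partner whose barcode matched in the first 11 of 12 bases, namely 43.8% of cells at day 4, 47.3% at day 7 and 51.8% at day 14. Of these barcode families, 83.3% to 90.3% held cells of 1 class, and whether a family is 1 droplet counted several times was not tested. Merging families left 2027, 1414 and 601 cells. Shares of cells with Cyr61 or Ctgf are given with and without merging, and shares of classes without it only. Summed UMIs per day are the same either way.

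Cells were clustered without the 10 genes and the pathway genes described below, except Acta2 and Gas6, which were also markers and stayed in. Clusters were named from marker lists. Day 4 was mostly differentiating myofibroblast-like (74.2% of cells) with proliferating progenitor-like cells (19.8%) and few differentiating Leydig-like cells (3.22%). Day 7 was mostly ECM myofibroblast-like (59.0%), followed by proliferating (22.1%) and differentiating Leydig-like cells (14.6%). Day 14 held differentiating Leydig-like (52.6%) and Leydig-like cells (45.5%). The Leydig-like cluster was led by Cyp17a1, Hsd3b1, Cyp11a1 and Insl3, genes of steroid synthesis and Leydig identity, so the label of the culture fitted its markers at day 14. Class makeup therefore moved with culture day, and a value summed over a day mixes both. Macrophage markers together made 11.8, 30.4 and 279 CPM (UMIs per 1000000 UMIs of the group) on days 4, 7 and 14, with 8 of 9 markers detected each day and C1qa at 0 on days 4 and 7 and C1qb at day 14. Endothelial markers made 45.8, 23.5 and 77.8 CPM, with Cldn5, Esam and Erg at 0 on days 7 and 14, and germ cell markers made 116, 19.5 and 39.8 CPM. Sertoli markers made 30.7, 34.6 and 15.2 CPM and pericyte markers at most 3.23 CPM. The part of these cells in the values per day was not tested, and the values within a class, given further on, leave the 67 cells of the macrophage and germ cell cluster out. Only 3 of those 67 cells were of day 14, and how much of the marker signal they held was not tested.

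Cyr61 and Ctgf, the 2 CCN genes best known as YAP targets, were lower on each later day. Cyr61 stood at 1128 CPM at day 4 (95% Poisson interval 1109.8–1147), 447 at day 7 (435–460) and 96.5 at day 14 (88.4–105). These intervals, and all others here, cover counting error only, and because each day is 1 library, day and library cannot be told apart. The day 4 level was 2.52-fold that of day 7 (2.44–2.60) and 11.7-fold that of day 14 (10.7–12.8). Ctgf stood at 2673 CPM at day 4 (2645–2702), 1489 at day 7 (1467–1512) and 412 at day 14 (394–429). Its day 4 level was 1.79-fold that of day 7 (1.76–1.83) and 6.50-fold that of day 14 (6.22–6.79). The day intervals did not overlap in either gene, and in both the larger share of the log2 difference lay between days 7 and 14.

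Wisp1, a CCN gene known as a WNT target and expressed in fibroblasts, differed little between days 4 and 7. It stood at 447 CPM at day 4 (436–459), 432 at day 7 (419.7–444) and 208 at day 14 (196–221). The ratio of day 4 to day 7 was 1.04 (0.998–1.08), an interval that includes 1, and that of day 4 to day 14 was 2.15 (2.01–2.29). Wisp2, the CCN protein that lacks the C-terminal domain of the others, had the opposite timing. It stood at 175 CPM at day 4 (168–183), 94.9 at day 7 (89.4–101) and 70.4 at day 14 (63.5–77.9), so most of its difference lay between days 4 and 7. The ratio of day 4 to day 14 was 2.49 (2.23–2.79), while day 7 exceeded day 14 by only 1.35-fold. Nov, whose protein can oppose CTGF, was near the detection limit, with 16 UMIs at day 4, 8 at day 7 and 0 at day 14. That is 1.26 and 0.688 CPM, and at day 14 a count of 0 allows up to 0.563 CPM (3 UMIs), and by the exact interval of the ratio the day 4 level was at least 1.62-fold higher. Wisp3, the remaining CCN gene, had 0 UMIs on all 3 days.

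Ankrd1, a nuclear ankyrin-repeat protein of stretched muscle and stressed fibroblasts, differed most between days 4 and 14 among the 9 genes with at least 20 UMIs. It stood at 175 CPM at day 4 (167–182), 106 at day 7 (101–112) and 4.70 at day 14 (3.04–6.93). The day 4 level was 1.64-fold that of day 7 (1.53–1.76) and 37.2-fold that of day 14 (25.1–57.6). Only 25 UMIs remained at day 14, in 5 barcodes, and 14 of them were in 1 barcode. Axl, a receptor tyrosine kinase for GAS6, was at a like level up to day 7, with 164 CPM at day 4 (157–171), 163 at day 7 (156–171) and 28.9 at day 14 (24.5–33.9). The ratio of day 4 to day 7 was 1.01 (0.945–1.07), and that of day 7 to day 14 was 5.64 (4.78–6.69). Axl and Wisp1 were thus level over the first interval and lower after the second, whereas Cyr61, Ctgf and Ankrd1 were lower after both.

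The genes that feed back on the Hippo pathway were lower on the later days as well. Amotl2, a junctional scaffold that binds YAP, stood at 168 CPM at day 4 (161–175), 103 at day 7 (97.3–109) and 38.9 at day 14, and its day 4 level was 4.31-fold that of day 14 (3.74–5.00). Ajuba, a LIM protein that restrains the LATS kinases, stood at 10.3 CPM at day 4 (8.57–12.2), 6.54 at day 7 (5.15–8.18) and 2.25 at day 14 (1.16–3.94). These 2 genes kept the same order of days. Lats2, the kinase that phosphorylates YAP, stood at 35.6 CPM at day 4 (32.4–39.0), 26.9 at day 7 (24.0–30.1) and 21.8 at day 14 (18.0–26.1). It was the least different of the 9 genes with at least 20 UMIs, at 1.63-fold between days 4 and 14 (1.33–2.02), and its ratio of day 7 to day 14 was 1.24, with an interval (0.995–1.54) that includes 1.

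**Figure D1:**
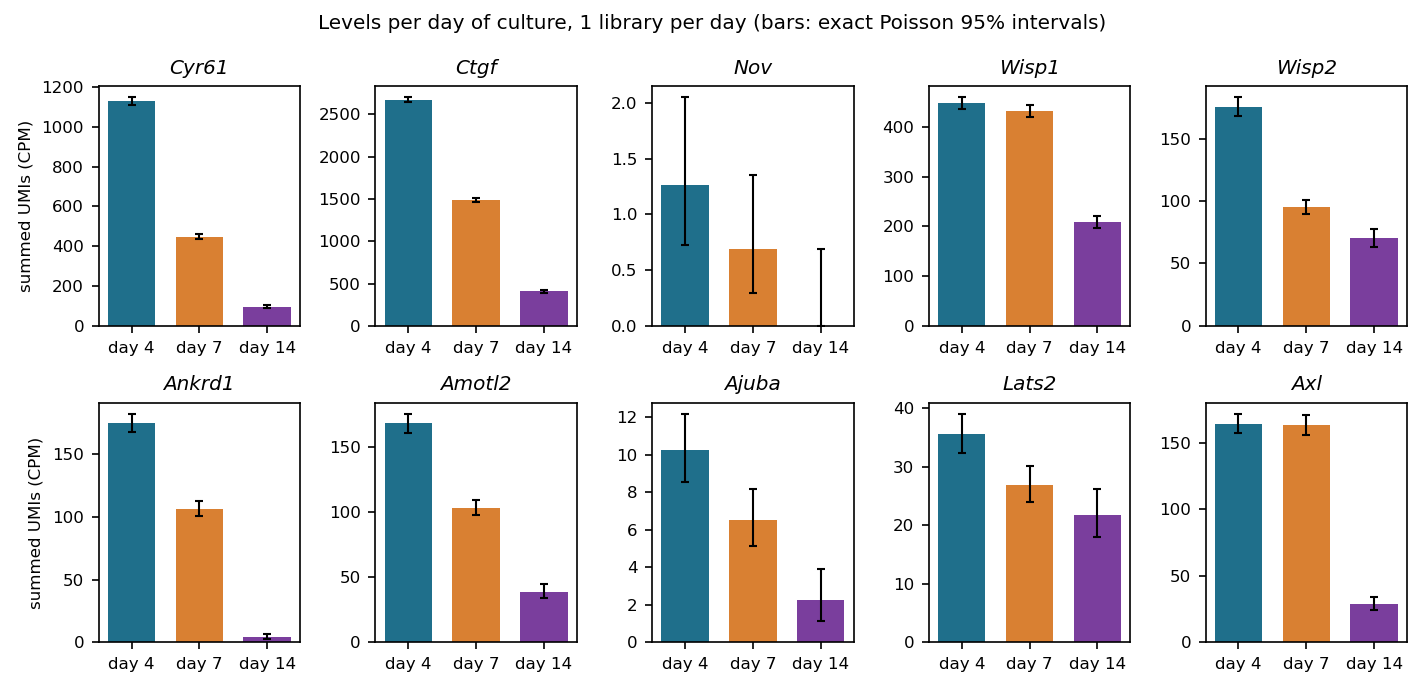
Summed UMIs of each gene in CPM (linear axes that start at 0, a scale per gene) in the single libraries of culture days 4, 7 and 14, with exact Poisson 95% intervals as error bars. Ankrd1 ran from 175 to 4.70 CPM and Cyr61 from 1128 to 96.5 CPM, while Wisp1 and Axl were level between days 4 and 7.

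A gene was counted as different where the levels of a pair of groups differed by at least 2-fold on the log2(CPM + 1) scale and at least 20 UMIs were seen in the pair. The 3 day comparisons share libraries and are not independent. Between days 7 and 4, 1 of the 10 genes, Cyr61, was past 2-fold lower and 0 were past it higher, where 2.76% of all 12954 genes measured were lower and 2.25% higher. All 10 ratios were nevertheless below 0, with a median log2 ratio of -0.64 against 0.09 over all genes. The intervals of the Axl, Wisp1 and Nov ratios included no difference, and the share of all genes below 0 is not given. Between days 14 and 4, 8 of 9 genes were past 2-fold lower and 0 higher, against 15.3% of all genes lower and 13.5% higher, and the median was -2.08 against -0.05. Between days 14 and 7, 7 of 9 were lower and 0 higher, against 14% and 10.1% of all genes, with a median of -1.38 against -0.13. Since the genes were chosen with results of these data known, these counts describe the genes and give no evidence about the pathway. Centring on the median gene shifts the day 14 comparisons by -0.21 (against day 4) and -0.20 (against day 7) on the log2 scale. After it, Wisp1 was at -0.89 and -0.85 and no longer past 2-fold, while the other calls of these comparisons stood. With equal weight per cell, Wisp2 lay just within 2-fold between days 14 and 4 (-0.996).

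**Figure D2:**
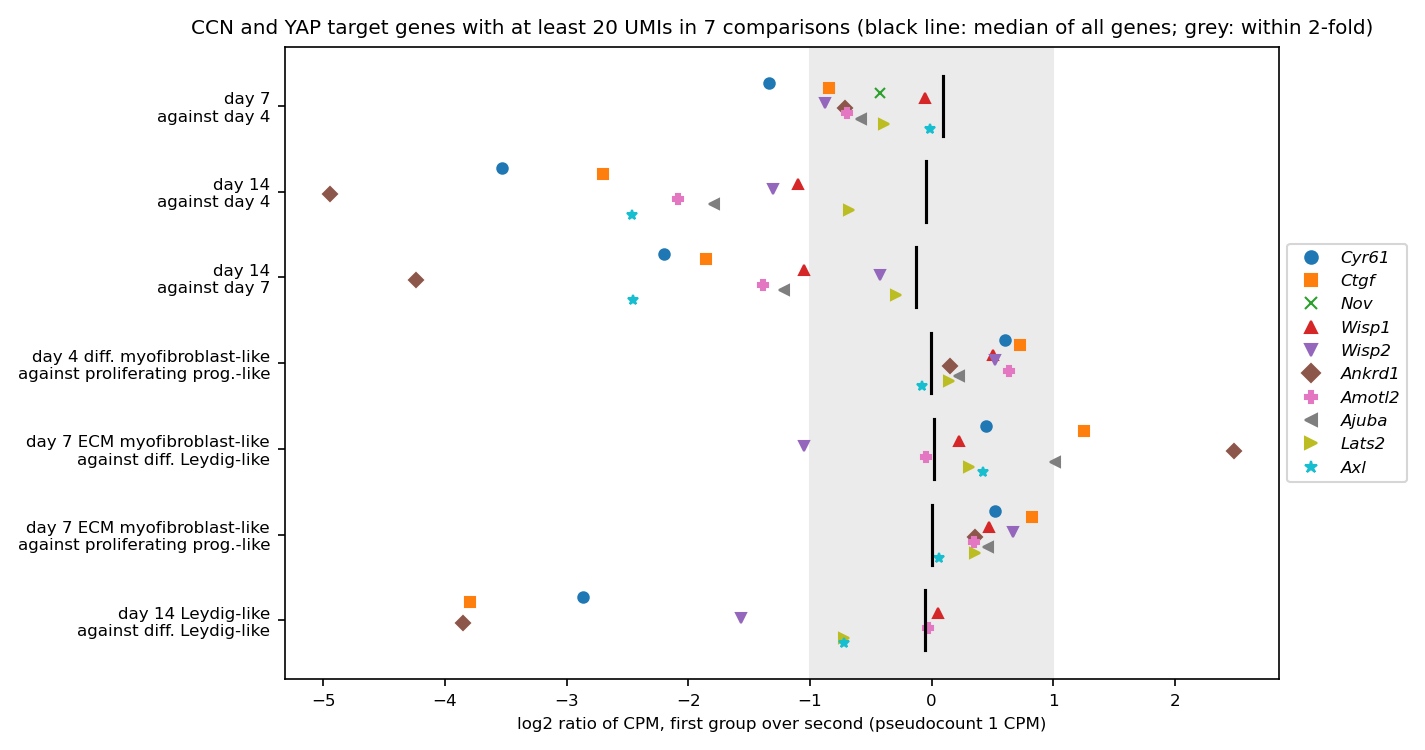
Log2 ratio of each gene with at least 20 UMIs (log2 of the CPM ratio, pseudocount 1 CPM) for the 3 day comparisons and the 4 cell state comparisons, with a grey band for differences within 2-fold and a black line at the median of all genes. Day 14 against day 4 ran from -4.95 for Ankrd1 to -0.68 for Lats2, and day 7 against day 4 from -1.33 for Cyr61 to -0.01 for Axl.

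The same genes were then read by cell state within a day, where cells share 1 library. At day 4 the differentiating myofibroblast-like cells had somewhat more of most of the genes than the proliferating progenitor-like cells. Cyr61 was at 1254 against 826 CPM, Ctgf at 3034 against 1834 CPM and Wisp1 at 492 against 346 CPM, all with intervals apart. Ankrd1 was at 184 against 165 CPM and Axl at 165 against 175 CPM, with overlapping intervals. 0 of 9 genes passed 2-fold in either direction, where 1.87% of all genes were higher and 5.42% lower, and the median log2 ratio was 0.51 against -0.00 over all genes. The 96 differentiating Leydig-like cells of that day differed from both other classes. They held Cyr61 at 566 CPM, Ctgf at 701 CPM and Wisp1 at 161 CPM, Ankrd1 at 10.1 CPM from 3 UMIs, and Wisp2 at 362 CPM, above both other classes. The name of these cells depended on the clustering. At a resolution of 0.4, 94 cells of day 4 carried it. At a resolution of 1.2 only 14 did and 86 lay in an unnamed cluster, and with the listed genes kept in the clustering these were 2 and 85.

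At day 4, the differentiating myofibroblast-like clusters differed in Ankrd1 more than in Cyr61 or Ctgf. Of the 3 differentiating myofibroblast-like clusters, 1 had Hbegf, Ptgs2 and Ankrd1 itself among its leading genes, although Ankrd1 took no part in the clustering. It held Ankrd1 at 303 CPM, against 95.1 and 143 CPM in the other two. Cyr61 spanned only 1186 to 1353 CPM and Ctgf 2708 to 3245 CPM over these clusters. Among proliferating cells, the cluster led by the S-phase genes Ccne2, Hells and Rrm2 had more Cyr61, Ctgf, Ankrd1 and Wisp2 than the cluster led by the mitotic genes Cenpf, Hmmr and Cdc20. At day 4, Cyr61 was at 1119 against 651 CPM, Ctgf at 2309 against 1550 CPM, Ankrd1 at 221 against 132 CPM and Wisp2 at 212 against 78.8 CPM. At day 7 the order was the same, with Cyr61 at 440.1 against 249 CPM, Ctgf at 1146 against 892 CPM and Ankrd1 at 127 against 61.1 CPM. Axl was at 170.1 against 177 CPM at day 4 and 163 against 164 CPM at day 7, so it did not share this order. The S-phase cluster was the deeper one, with a median of 4476 UMIs per cell over all days against 3127.

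At day 7 the ECM myofibroblast-like cells, the matrix-producing class, exceeded the differentiating Leydig-like cells in Ctgf and Ankrd1 but not in all of the genes. Of these 318 differentiating Leydig-like cells, 262 lay in a cluster led by Eln, Mfap4 and Fmod, and their name depended on the clustering. With the listed genes kept in it, a cluster led by Eln held 270 cells of day 7 and was unnamed, and this comparison was lost. Ctgf was at 1807 CPM (1776–1838) against 758 CPM (710.1–808), a 2.38-fold ratio (2.23–2.55). Ankrd1 was at 121 CPM (114–130) against 20.9 CPM (13.7–30.6), a 5.81-fold ratio (3.94–8.94). Wisp2 had the reverse order, at 92.1 CPM (85.3–99.3) against 191 CPM (168–217). Amotl2 was at 106 against 109 CPM and Wisp1 at 475 against 406 CPM. In all, 3 of 9 genes were past 2-fold higher (Ankrd1, Ctgf and Ajuba), against 6.15% of all genes, and 1 lower (Wisp2), against 5.49%. The Ajuba call rests on 55 and 4 UMIs, and the interval of its ratio (0.860–8.86) includes 1. The median log2 ratio was 0.42 against 0.02 over all genes. Against proliferating progenitor-like cells, 0 of 9 genes were past 2-fold in the ECM class, where 2.38% of all genes were higher and 5.69% lower. All 9 log2 ratios were above 0, from 0.06 for Axl to 0.82 for Ctgf, with a median of 0.46 against 0.00. The intervals of Axl, Lats2 and Ajuba included no difference, and the share of all genes above 0 is not given.

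At day 14 the split between Leydig-like and differentiating Leydig-like cells ran through the CCN genes. Ctgf was at 71.5 CPM (62.8–81.2) in the Leydig-like cells and 1004 CPM (959–1051) in the differentiating ones, a ratio of 0.0713 (0.0620–0.0816). Cyr61 was at 29.5 CPM (24.0–35.9) and 221 CPM (200.1–243), a ratio of 0.134 (0.106–0.167), and Wisp2 at 42.0 CPM (35.4–49.6) and 126 CPM (110.5–143), a ratio of 0.333 (0.269–0.413). Ankrd1 had 0 UMIs in 443 Leydig-like cells, which allows 0.894 CPM, and 25 UMIs or 13.5 CPM in the differentiating cells, at least 11.4-fold higher by the exact interval of the ratio. Of these 25 UMIs only 6 (3.31 CPM) lay in the 505 cells of the main cluster of the class, so the value rests largely on its other 7 cells. Fewer than 20 UMIs were left with thinned cells and with the listed genes kept in the clustering (-2.05 on the log2 scale), and the call was lost there. Wisp1 was at 211 CPM (196–227) and 204 CPM (184–225), with a ratio of 1.03 (0.912–1.18). Amotl2 was at 39.1 and 39.9 CPM, with a ratio of 0.979 (0.731–1.32). Axl, at a ratio of 0.599 (0.430–0.834), and Lats2, at 0.593 (0.404–0.873), were lower in the Leydig-like cells but within 2-fold. With thinned cells both were past it, at -1.01 and -1.69 on the log2 scale. So 4 of 8 genes were past 2-fold lower in the Leydig-like cells, against 5.99% of all genes, and 0 were higher, against 4.36%. The median log2 ratio was -1.14 against -0.05. The Leydig-like cells were the deeper ones, with a median of 5153 UMIs against 2131.5. At a finer clustering resolution of 1.2, which moved 171 cells of day 14 into an unnamed cluster, the Wisp2 ratio turned to 0.26 on the log2 scale from -1.56, while Ctgf and Cyr61 stayed past 2-fold.

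**Figure D3:**
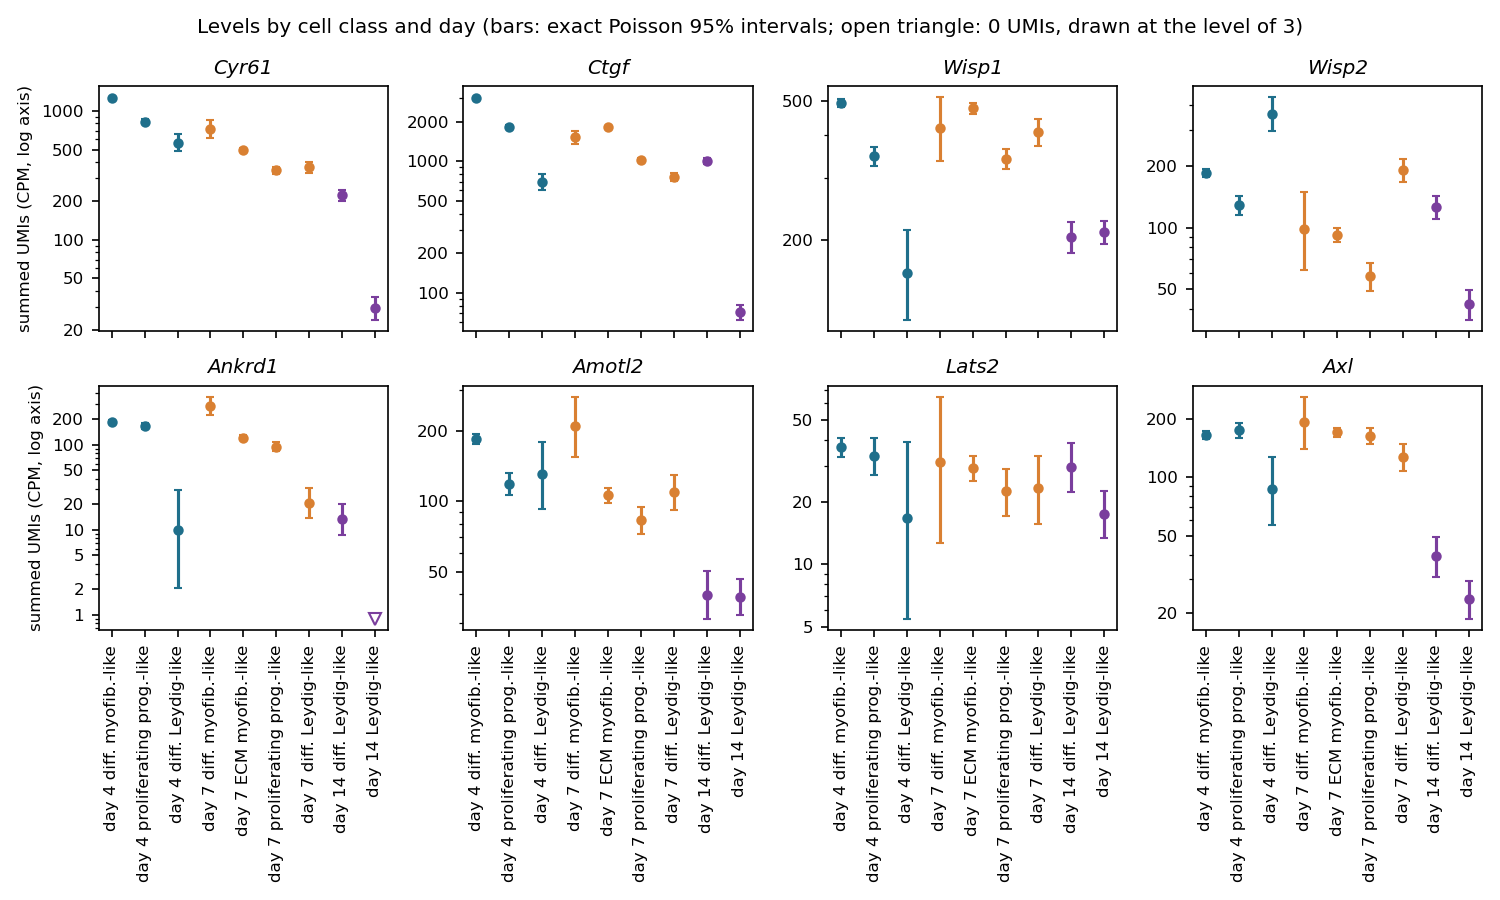
Summed UMIs of 8 of the genes in CPM (log axes) in each named class of at least 50 cells on each culture day, with exact Poisson 95% intervals as error bars and an open triangle at the level of 3 UMIs where a class had 0. At day 14 Ctgf and Cyr61 stood at 71.5 and 29.5 CPM in Leydig-like cells against 1004 and 221 CPM in differentiating Leydig-like cells, while Wisp1 stood at 211 and 204 CPM.

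Classes present on more than 1 day allowed each gene to be followed at like cell state. In proliferating progenitor-like cells, the ratio of day 7 to day 4 was 0.419 for Cyr61 (0.388–0.452), 0.556 for Ctgf (0.531–0.583), 0.448 for Wisp2 (0.369–0.542) and 0.572 for Ankrd1 (0.489–0.667). Wisp1 and Axl were level in them, at 0.985 (0.900–1.08) and 0.934 (0.820–1.06). The pattern of the whole libraries between days 4 and 7 was therefore also present within a class that was on hand on both days. In the 61 differentiating myofibroblast-like cells left at day 7, Cyr61 was at 0.580 (0.493–0.677) and Ctgf at 0.502 (0.449–0.558) of its day 4 level, but Ankrd1 was at 1.56, with an interval above 1.

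Ctgf parted from Cyr61 in the differentiating Leydig-like class. Its level was 701 CPM at day 4, 758 at day 7 and 1004 at day 14, while Cyr61 was at 566, 365 and 221 CPM. The ratio of day 14 to day 4 was 1.43 for Ctgf (1.24–1.66) and 0.390 for Cyr61 (0.325–0.469). The day 4 side of these ratios rests on 96 cells, a set that depended on the clustering settings. Axl was at 0.451 (0.285–0.736), Wisp2 at 0.348 (0.276–0.442) and Amotl2 at 0.305 (0.204–0.462) of the day 4 level. Wisp1 was highest at day 7, with 161, 406 and 204 CPM. Ankrd1 was not lower at day 14 in this class, at 1.34 (0.409–6.93) from 25 UMIs at day 14 and 3 at day 4. Lats2 was at 1.77 (0.714–5.66), from 55 and 5 UMIs. The intervals of Ankrd1 and Lats2 include 1. Different clusters held this class on different days. At day 7, 262 of 318 cells were in a cluster led by Eln, Mfap4 and Fmod, and at day 14, 505 of 512 were in one led by Slc38a5, Gpx3 and Mmp2. Within this second cluster, Ctgf stood at 639.6 CPM in the 52 cells of day 4, 124 CPM in the 56 cells of day 7 and 968 CPM in the 505 cells of day 14, so it followed no single direction there. In the first it was at 857 CPM at day 7. Ctgf was thus lower in the whole library of day 14 than in that of day 4, but not in its differentiating Leydig-like cells.

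Shares of cells with at least 1 UMI gave the same order of days. As deposited, 74.9%, 54.2% and 17.9% of cells had Cyr61 on days 4, 7 and 14. With each cell thinned to 1500 UMIs the shares were 66.4%, 37.1% and 9.07%, and with barcode families merged as well 65.4% (63.1–67.5), 38.0% (35.4–40.7) and 10.7% (8.25–13.6), with exact Clopper-Pearson 95% intervals. Ctgf was seen in 88.2%, 77.8% and 37.2% of cells, and after merging and thinning in 82.3% (80.5–84.0), 69.7% (67.1–72.1) and 28.1% (24.4–32.1). The lowest shares were those of the day 14 Leydig-like cells, with Ctgf in 7.48% (5.17–10.4) and Cyr61 in 3.74% (2.15–6.00) of 428 thinned cells, against 52.1% (46.8–57.5) and 16.0% (12.3–20.2) of 351 differentiating ones. With families merged the shares were 6.91% and 4.36% of 275 Leydig-like cells, against 53.3% and 17.6% of 244 differentiating ones. No class is known to lack these genes, so this lowest share is the nearest to a background, and the part of free RNA in it was not tested. Ankrd1 was in 0 of the 428 cells, which allows 0.701%. Thinning left out 753, 429 and 179 cells of days 4, 7 and 14 as too shallow, and 165, 95 and 50 after merging.

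At day 4, Ankrd1 was spread more unevenly over cells than targets of a like level. After merging and thinning, Ankrd1, Wisp2, Axl and Amotl2 had like means of 0.252, 0.256, 0.230 and 0.269 UMIs per cell. The variance of the count was 3.09 times the mean for Ankrd1, against 1.44 for Wisp2, 1.08 for Axl and 1.10 for Amotl2. Pure counting would give 1. For the more abundant Ctgf this ratio was 2.88, 2.66 and 3.51 on days 4, 7 and 14, and for Ankrd1 it was 1.95 at day 7 and 2.19 at day 14, from few UMIs. The richest 5% of cells (93 of 1862) held 65.3% of the Ankrd1 UMIs, 45.5% of the Wisp2 UMIs, 36.6% of the Axl UMIs and 35.2% of the Amotl2 UMIs. At day 7 the richest 5% held 71.8% of the Ankrd1 UMIs. Ctgf and Cyr61 were found more widely, with 15.7% and 19.7% of their UMIs in the richest 5% at day 4, at higher means. Over merged and thinned cells, Pearson's r between Cyr61 and Ctgf was 0.39, 0.27 and 0.29 on days 4, 7 and 14 (1862, 1319 and 551 cells). Cells of a day share the library and mix classes, so this is a description.

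**Figure D4:**
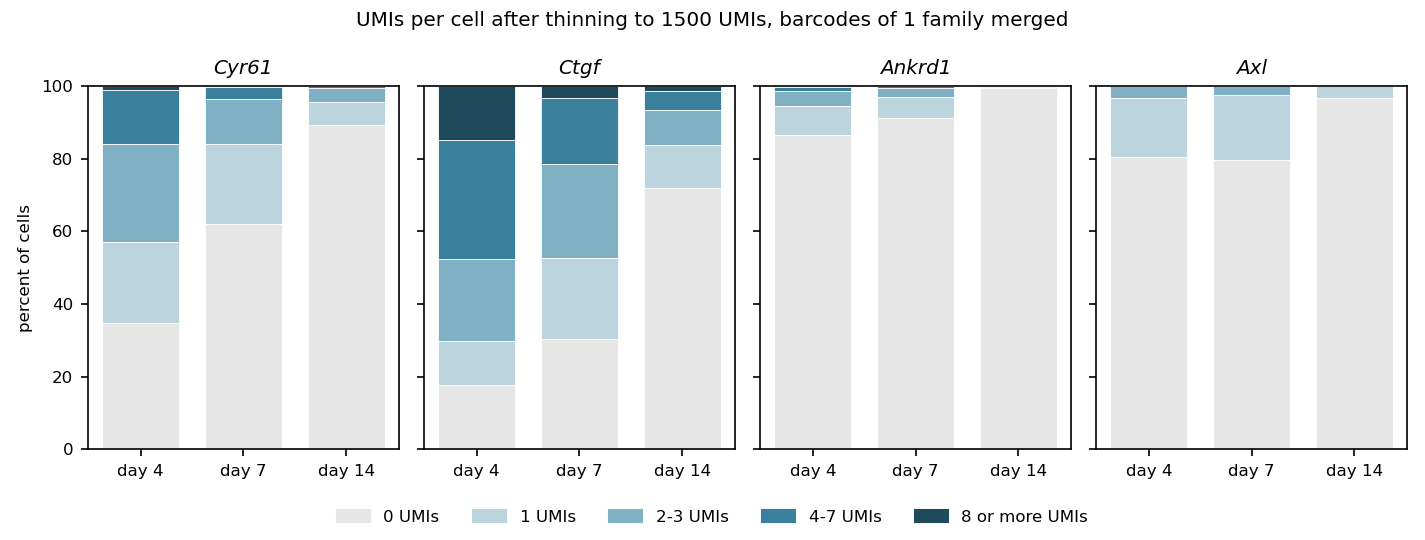
Percent of cells (stacked bars) by number of UMIs of Cyr61, Ctgf, Ankrd1 and Axl per cell on culture days 4, 7 and 14, with barcode families merged and each cell thinned to 1500 UMIs. Ankrd1 was not detected in most cells at this depth and had several UMIs in a few at day 4, whereas Ctgf was present in 82.3% of cells at day 4 and 28.1% at day 14.

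The pathway around these targets was read from gene lists that were also made with results of these data known. Among YAP, TAZ and their DNA-binding partners, 4 of 8 were past 2-fold lower at day 14 than at day 4 and 0 higher, against 15.3% and 13.5% of all genes, and these were Tead1, Tead2, Tead3 and Tead4. Tead3 and Tead4 lay closer to the 2-fold line than the -0.21 shift of the median gene, so centring would bring both within it. The Tead4 call rests on 27 UMIs at day 4 and 3 at day 14. Tead1 was at 146, 105 and 35.3 CPM on days 4, 7 and 14, a log2 ratio of -2.02 between days 14 and 4. Yap1 was at 72.3, 56.6 and 39.3 CPM (-0.86) and Wwtr1, which encodes TAZ, at 179, 205 and 92.4 CPM (-0.94), both within 2-fold. Between days 7 and 4, 0 of the 8 were past 2-fold. Transcript levels do not report where YAP and TAZ proteins were in the cell. Of 20 Hippo kinases, scaffolds and upstream regulators, 3 were lower at day 14 than at day 4 (Wwc1, Wwc2 and Frmd6) and 0 higher, with a median of -0.33. A count of 3 in 20 is near the 15.3% of all genes that were lower. The core kinase gene Stk3 was at 64.0, 68.5 and 77.6 CPM and Lats1 at 42.4, 40.3 and 29.9 CPM. Of 15 further genes of a published YAP and TAZ target signature with enough UMIs, 10 were lower at day 14 than at day 4 and 0 higher, against 15.3% and 13.5% of all genes, with a median of -2.0. F3, which encodes tissue factor, was at -4.49, the kinase gene Nuak2 at -3.65, Crim1 at -3.59 and Myof at -3.09. Between days 7 and 4 the same list was mixed, with 3 lower (F3, Igfbp3 and Tgfb2) and 1 higher, against 2.76% and 2.25% of all genes. The higher gene was Gadd45a, a growth arrest gene, at 54.8 CPM at day 4, 156 at day 7 and 28.7 at day 14.

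Contractile and immediate-early genes were included because serum response factor and the immediate-early response are further known routes to Cyr61 and Ctgf. The contractile list of 11 genes also held Srf, Mkl1 and Mkl2, which encode serum response factor itself and its co-activators. In this list 10 were lower at day 14 than at day 4 and 0 higher, against 15.3% and 13.5% of all genes. Srf and Mkl1 were among the lower ones. The list median was -3.50, further from 0 than the -2.08 of the 10 genes. Acta2, smooth muscle actin, was at 3162, 2831 and 97.1 CPM, and Tagln at 1138, 1117 and 29.1 CPM. Between days 7 and 4, 0 of 11 were past 2-fold, against 2.76% of all genes lower and 2.25% higher. Of these 11 ratios 10 were below 0, with a median of -0.38 against 0.09 over all genes, and the share of all genes below 0 is not given. Acta2 was also a marker used to name the differentiating myofibroblast-like class. The immediate-early list was split at day 14 against day 4, with 8 of 21 lower and 2 higher, against 15.3% and 13.5% of all genes, and a median of -0.47. Fos (2.71) and Fosb (1.92), which answer to tissue dissociation, were the higher ones, and Fosl1, another AP-1 gene, was the lowest at -4.21. Between day 14 classes, 13 of 18 immediate-early genes were past 2-fold lower in Leydig-like than in differentiating Leydig-like cells and 0 higher, against 5.99% and 4.36% of all genes, with a median of -1.28. They moved with Cyr61 and Ctgf there, and their part in that difference was not tested. At day 7, ECM myofibroblast-like cells exceeded differentiating Leydig-like cells in 6 of 14 signature genes and 5 of 11 in the contractile list. Lower were 2 and 0, against 6.15% of all genes higher and 5.49% lower. The 5 included Acta2, which had stayed in the clustering.

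The receptors and ligands on the other side of these proteins did not all move with them. Gas6, the ligand of AXL, was at 338 CPM at day 4, 423 at day 7 and 3061 at day 14, a log2 ratio of 3.18 between days 14 and 4, while Axl was at -2.47. Gas6 was also a marker used to name the differentiating Leydig-like class. Pros1, a second ligand of this receptor family, was at 98.8, 95.9 and 273 CPM. Mertk, a related receptor, was at 11.2, 13.7 and 16.2 CPM. Among the integrin subunits that bind CCN proteins, Itgav was at 120.3, 176 and 40.0 CPM, Itga5 at 59.8, 60.2 and 7.51 CPM and Itgb1 at 2033, 2064 and 839 CPM. Itgb5 had the opposite order, at 72.7, 95.3 and 165 CPM. In all, 5 of the 12 genes in this list were past 2-fold lower at day 14 than at day 4 and 3 higher, against 15.3% and 13.5% of all genes.

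**Figure D5:**
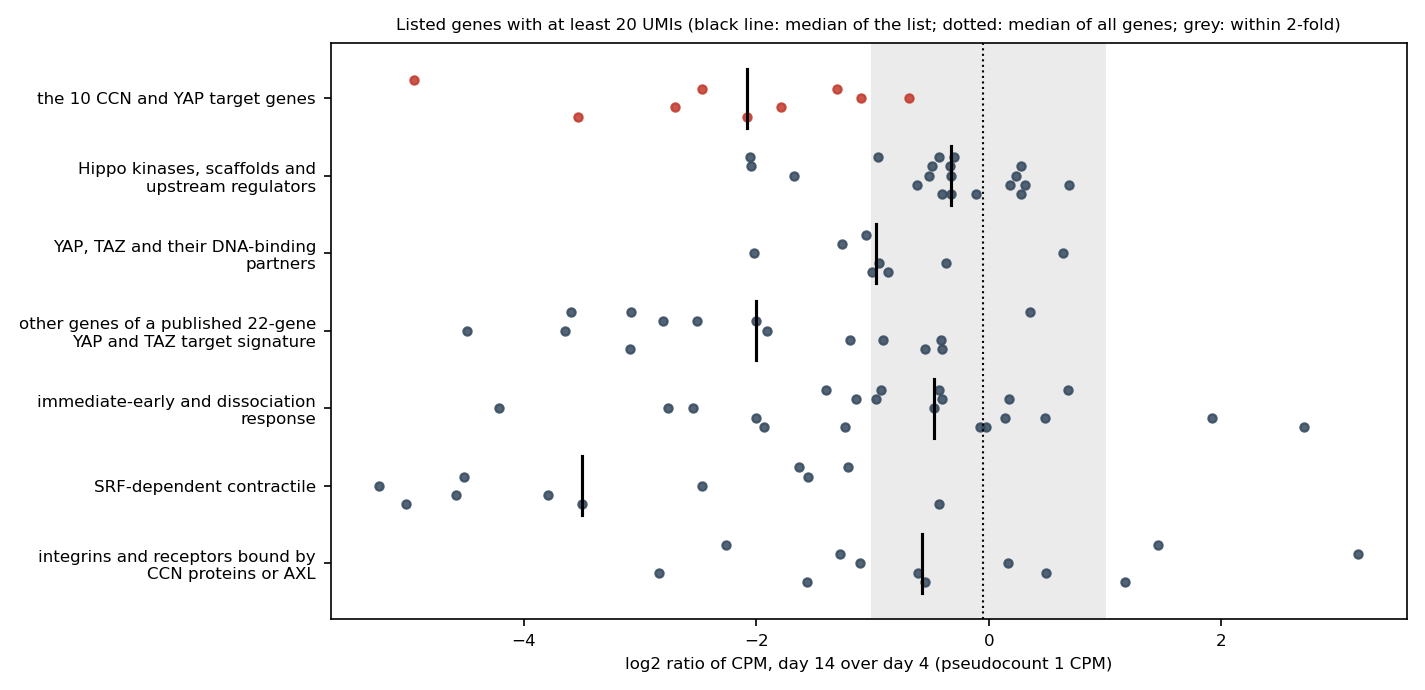
Log2 ratio of day 14 against day 4 for the 10 genes and each pathway list, 1 point per gene with at least 20 UMIs, a black line at the median of the list, a dotted line at the median of all genes and a grey band for differences within 2-fold. The medians were -2.08 for the 10 genes, -3.50 for the contractile list, -2.0 for the other signature genes, -0.97 for YAP, TAZ and partners and -0.33 for Hippo regulators.

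Genes with the most similar pattern over the 9 class-by-day groups were sought for each gene with at least 50 CPM, among 2848 candidates, and are given with no inference of shared function. Cyr61 was most like Klc1 (r = 0.98), Ddb1 and S100a6 (both 0.97). Ctgf was most like Lhfp (0.94), a lower likeness than that of Cyr61. Ankrd1 was most like Myo1c and Actb (both 0.98), and Amotl2 most like Dynlrb1 (0.98). Wisp1 was most like Bhlhe40 (0.96) and Wisp2 most like Ttc3 (0.97). Axl was most like Rap1a (1.00) and Lgals1 (0.99). The 9 points share 3 libraries.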

How the data were processed

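Expression was measured by Drop-seq in 1 library for each of culture days 4, 7 and 14. The authors aligned reads to GRCm38 with STAR and deposited UMI counts per gene and cell made with Drop-seq tools, without normalization. The submitters' processing notes name STAR 2.5.2a, Picard 2.6.0 and SAMtools 1.2, and the study's methods give another STAR version. The merged table of filtered cells was used, and its 6124 columns of these libraries equalled the counts per day. The other 495 columns, of no sample used here, were left out. The filter of that table asks for 500 detected genes or more and a mitochondrial share of 10% or less, which left 594 to 80524 UMIs per cell.

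The 10 genes, the pathway lists and the markers were chosen with earlier results of these data known. Cells were clustered in Seurat 5.3.0 (R 4.3.3) with 2000 variable genes, 20 components, 20 neighbours and resolution 0.8, leaving out 97 listed genes other than markers. A cluster was named from at least 3 detected markers (10 UMIs or more, and a level of 1.5 times that of all remaining cells). The study's clusters were not rebuilt exactly, so differences from the study may come from rebuilt names. Doublets were not removed, and leaving out the 6% of cells with the highest Scrublet score (scanpy 1.11.5) was tried as an alternative.

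Summed UMIs per group are given as CPM with exact Poisson 95% intervals and ratios with exact conditional intervals. Log2 ratios used a pseudocount of 1 CPM, which understates differences of low genes. With 1 library per day there was no test, and a call meant 2-fold with at least 20 UMIs. Named genes were the 10 genes, the extremes of each list with those described by role, and the 3 genes most like each in log2(CPM + 10) over groups of at least 50 cells. Python 3.11.15, scipy 1.17.1, numpy 2.4.6 and pandas 2.3.3 were used, and the ratio step was tested on simulated data. Alternatives covered cell filters, cell weights, thinning to 1500 UMIs, scaling, doublets, clustering and barcode families. Levels by cluster within a class and the spread of UMIs over cells were added after the values had been seen. Genes were matched by symbol, and GENCODE M21 gave positions only.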

Additional observations from a re-analysis of the deposited data

How the results depend on the processing

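Of 70 counts of the 10 genes past 2-fold recomputed under the alternatives, 67 stayed within 1.5 times of the reported count. The exceptions were cell state comparisons. At resolution 1.2, day 7 ECM myofibroblast-like against differentiating Leydig-like cells gave 2 in place of 4 (Wisp2 at -0.94 and Ajuba at 0.89 were within 2-fold), and day 14 Leydig-like against differentiating Leydig-like cells gave 2 in place of 4 (Wisp2 turned to 0.26 from -1.56, and Ankrd1 fell under 20 UMIs). Without cells that share 11 barcode bases, an alternative chosen after seeing the data, day 7 ECM myofibroblast-like against proliferating cells gave 1 in place of 0 (Ajuba, 1.10). Apart from the resolution, whose own construction moved cells out of a class, the cause was not tested. Of the values of single genes, 542 moved little, 85 moved by more than their interval and 1 reversed. Wisp2 at day 14 against day 4 lay just within 2-fold with equal weight per cell (-0.996) and with thinned cells (-0.98). Wisp1 at day 14 against day 7 was at -0.98 with thinned cells. With the listed genes kept in the clustering, too few day 7 differentiating Leydig-like cells were named for that comparison to be given. The alternative without a cell filter applies to the day comparisons alone. No paired analysis was possible because each day has 1 library. Depth limits Nov, and Ajuba and Ankrd1 at day 14, to a few UMIs.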
